A study of Mus musculus with 22 samples.

Results

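Histone-modifying and chromatin-remodelling genes were followed at the RNA level in mouse bone marrow-derived macrophages exposed for 3 h to lipopolysaccharide (LPS), lactic acid (LA), both, or LPS in medium acidified with hydrochloric acid (HCl). The 41 genes were chosen by symbol, and all 41 were found among the 16059 genes of the deposited expression table. They fall into 7 classes: 11 histone deacetylases, 6 sirtuins, 9 acetyltransferases, 2 bromodomain readers, 3 corepressors, 5 subunits of SWI/SNF remodellers and 5 genes of histone methylation. All cells came from C57/BL6 mice, and their marrow was cultured over 7 days with supernatant of L929 cells, a source of macrophage colony-stimulating factor. RNA was sequenced from 10 libraries in 5 groups of 2: control (no treatment), LA, LPS (100 ng/ml), LPS+LA (LPS with 10 mM L-(+)-lactic acid) and LPS+HCl (LPS at low pH, with pH 6.5 given as an example). The dose of LA given alone and the pH reached with LA are not stated in the labels. ATAC-seq, which maps open chromatin, covered 12 samples, 3 each of control, LPS, LA and LPS+LA. No label says whether replicates were separate animals or cultures, so the p-values below gauge the scatter among these libraries alone, and that scatter may be technical.

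Histone acetyltransferases add acetyl groups to lysines of histone tails, and deacetylases and the NAD-dependent sirtuins remove them. Bromodomain proteins such as Brd2 and Brd3 bind acetylated histones, while corepressors such as Ncor1, Sin3a and Rcor1 are scaffolds that bring deacetylases to genes. SWI/SNF complexes use ATP to move nucleosomes, and Ezh1 and Ezh2 lay down a repressive methyl mark on histone H3 that Kdm6a and Kdm6b remove. Setdb2 belongs to another family of histone H3 methyltransferases linked to repression. In macrophages these enzymes are known as regulators of how inflammatory genes open and close during a response to bacterial products.

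Total counts per library lay between 18668648 and 20219888, and log2 values of replicates correlated across genes at 0.993 to 0.997. All 10 macrophage markers were present, summing to 13850 to 19780 CPM (counts scaled to a common library size) in each library, and 8 lists of markers of other blood or connective tissue cells summed to at most 6.344 CPM. A list of glial markers summed to 26.7 to 61.4 CPM, lowest in the LPS libraries (30.5 and 26.7) and at 55.0 and 54.7 in control. Nearly all of it was Mbp (26.7 to 60.6 CPM). Neuronal markers summed to 48.6 CPM in LPS+HCl replicate 2 and 31.9 CPM in control replicate 1, and to at most 6.73 CPM elsewhere, so counts are also given without these 2 libraries where that changed them by more than 1.5 times. Counts were scaled by edgeR's trimmed mean of M values (TMM), whose factors ran from 0.7587 (LPS) to 1.267 (control). Under plain total-count scaling the median of all tested genes was at a log2 change of -0.77 in LPS against control, 0.429 in LPS+LA against LPS, 0.249 in LPS+HCl against LPS and 0.508 in the difference between the LA effects with and without LPS. TMM sets these medians near 0, so every rise or fall below is relative to the bulk of genes, and members whose direction turned under total-count scaling are named. Less RNA per cell and fewer cells of a kind cannot be told apart in such bulk samples.

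In control macrophages the members covered a wide range of levels. On the length-adjusted scale of the deposited TPM values (abundance adjusted for transcript length), Sirt2, a mainly cytoplasmic sirtuin that deacetylates tubulin, was highest at 197.9 TPM ± 6.30 (SD, n = 2). It was followed by Brd2 at 150.4 TPM ± 7.23 and by Smarca4, the ATPase of SWI/SNF also called BRG1, at 102.7 TPM ± 8.75. The class I deacetylase Hdac1 came next at 95.1 TPM ± 3.69, so that Smarca4 and Hdac1 lay within their joint spread. At the other end stood Hdac7 at 4.62 TPM, Kdm6b at 2.67 TPM ± 0.127 and Hdac11 at 1.24 TPM. The median level in control was 57.3 TPM for the remodellers, 28.7 TPM for the acetyltransferases, 18.1 TPM for the sirtuins and 16.0 TPM for the deacetylases. For differences between groups the CPM of each gene were used.

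Most members had an open start site in all conditions, and the sequences before some of their starts are shown as examples. Of the 36 members with a start in the RefSeq promoter table for GRCm38.p6, 34 (94.4%) had an ATAC peak over a start in all 12 samples, beside 85.4% of 9797 tested genes. The exceptions were Brd3 and Kat6b. Brd3 had a peak over its start in 2 of 3 LA samples and in every other sample. That start lay within a site with a peak in all 12 samples, chr2:27474989-27476383. The starts of Kat6b lay 423 and 438 bp from a site with a peak in all 12 samples, chr14:21500208-21501399. The 250 bases before member starts held a median of 18 CpG dinucleotides over 51 starts, against 15 over 12515 starts of tested genes. The 5 examples that follow are given 5′ to 3′ on the gene's strand, end at the base before the start, are cut to the part outside any annotated gene and have CpG in capitals. They are Hdac5 (chr11:102230173-102230422, minus strand), Sirt1 (chr10:63339036-63339285, minus), Sirt3 (chr7:140882310-140882393, minus, with Psmd13 at its far end), Setdb2 (chr14:59440881-59440933, minus, with Cab39l at its far end) and the upstream start of Hdac9 (chr12:34917096-34917345, minus).
Hdac5: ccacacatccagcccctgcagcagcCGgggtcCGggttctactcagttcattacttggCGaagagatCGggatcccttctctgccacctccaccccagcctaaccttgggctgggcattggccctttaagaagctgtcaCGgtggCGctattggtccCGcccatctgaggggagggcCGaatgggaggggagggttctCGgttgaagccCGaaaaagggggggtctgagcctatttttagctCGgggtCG
Sirt1: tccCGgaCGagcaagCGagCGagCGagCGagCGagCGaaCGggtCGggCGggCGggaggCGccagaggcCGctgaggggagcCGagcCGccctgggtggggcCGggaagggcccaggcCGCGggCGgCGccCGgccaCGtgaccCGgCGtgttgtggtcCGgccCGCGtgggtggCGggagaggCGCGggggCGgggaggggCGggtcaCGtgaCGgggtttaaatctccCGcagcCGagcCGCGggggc
Sirt3: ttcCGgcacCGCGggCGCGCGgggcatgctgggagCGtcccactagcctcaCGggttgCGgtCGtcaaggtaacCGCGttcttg
Setdb2: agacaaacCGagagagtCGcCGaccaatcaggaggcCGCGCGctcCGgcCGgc
Hdac9: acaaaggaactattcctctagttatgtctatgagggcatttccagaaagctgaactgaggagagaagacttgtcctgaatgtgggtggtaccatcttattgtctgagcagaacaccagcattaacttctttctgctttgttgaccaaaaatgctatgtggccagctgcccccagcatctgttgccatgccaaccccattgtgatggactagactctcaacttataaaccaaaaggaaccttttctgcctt
The Sirt1 sequence holds 39 CpG and the motif CACGTG (the E-box, seen there as caCGtg) at 115 and 43 bases before the start. Hdac5 holds 12 CpG, the Sirt3 and Setdb2 stretches 12 and 8, and the Hdac9 sequence none. Hdac9 and Sirt3 have 2 starts each, and a peak over any start of a gene was counted. Whether the start shown here for these genes was the open one is therefore not known.

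In all, 6 motifs were searched on both strands of these 250-base windows. The NF-kB motif was found in 5.88% of 51 member starts (Sin3a, Sirt2 and Sirt6) beside 3.90% of 32851 starts of all genes. For the AP-1 motif TGANTCA the shares were 7.84% (Hdac9, Kat2b, Kat8 and Smarcb1) and 6.75%, for the E-box 5.88% (Kat5, Kdm6a and Sirt1) and 6.02%. The interferon-stimulated response element stood at 1.96% (Kat5) and 2.98%, the cAMP element TGACGTCA at 0 of the member starts and 1.55%, and its core TGACGT, which overlaps it, at 5.88% (Kat5, Kat8 and Sin3a) and 6.47%. A match is only a run of letters in these windows.

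LPS changed the RNA of most members, in both directions. In LPS against control, 17 members rose and 19 fell, where 32.4% of all 12213 tested genes rose and 32.4% fell (edgeR quasi-likelihood test, Benjamini-Hochberg adjusted p under 0.05). The members' median log2 change was -0.19, beside -0.05 over all tested genes. The largest rises were those of the methyltransferase Setdb2 (log2 3.61 ± 0.15 SE) and the demethylase Kdm6b (3.16 ± 0.11), and the largest falls of members above 5 CPM those of the acetyltransferase Kat6b (-2.16 ± 0.18), Hdac5 (-1.68 ± 0.09) and Sirt3 (-1.58 ± 0.28). By class, 3 deacetylases rose and 6 fell, 3 sirtuins rose and 3 fell, 4 acetyltransferases rose and 4 fell, 1 reader rose and 1 fell, 2 corepressors fell, 3 remodellers rose and 2 fell, and 3 methylation genes rose and 1 fell. Under total-count scaling the split was 7 higher and 31 lower, beside 1761 higher and 8289 lower of all 12213 tested genes. All 19 falls remained, as did the rises of Hdac1, Kat2b, Kat6a, Brd2, Arid1a, Kdm6b and Setdb2, whereas Hdac2, Hdac9, Sirt2, Sirt6, Crebbp, Kat5, Smarca4, Smarcb1 and Ezh1 turned to between -0.49 and -0.04 and Sirt1 stood at 0.02. With 1 library left out in turn, 14 of the rises and 14 of the falls were kept each time. Hdac6, Hdac9, Hdac10, Hdac11, Sirt2, Sirt7, Kat8 and Smarcb1 lost the call at least once, with an adjusted p of 0.0511 (Sirt2 without control replicate 1) to 0.336 (Smarcb1 without control replicate 1).

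Among 170 other tested chromatin genes, a list of further acetylation, methylation, remodelling and DNA-methylation factors, 56 rose and 73 fell with LPS. These were 32.9% and 42.9% of the list, beside 32.4% and 32.4% of all tested genes. The largest rises were those of Tet2 (log2 3.38), which oxidises methylcytosine, Sap30 (2.95), a subunit of the Sin3 complex, Pcgf5 (2.52), a Polycomb protein, Kdm4a (2.37), a histone demethylase, and Phip (2.12). Jade1 (-3.39), a scaffold of the Kat7 complex, Atad2 (-2.47), the Polycomb protein Cbx6 (-2.44), the methyltransferase Kmt5c (-2.22) and Uhrf1 (-1.97), which maintains DNA methylation, fell most.

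**Figure D1:**
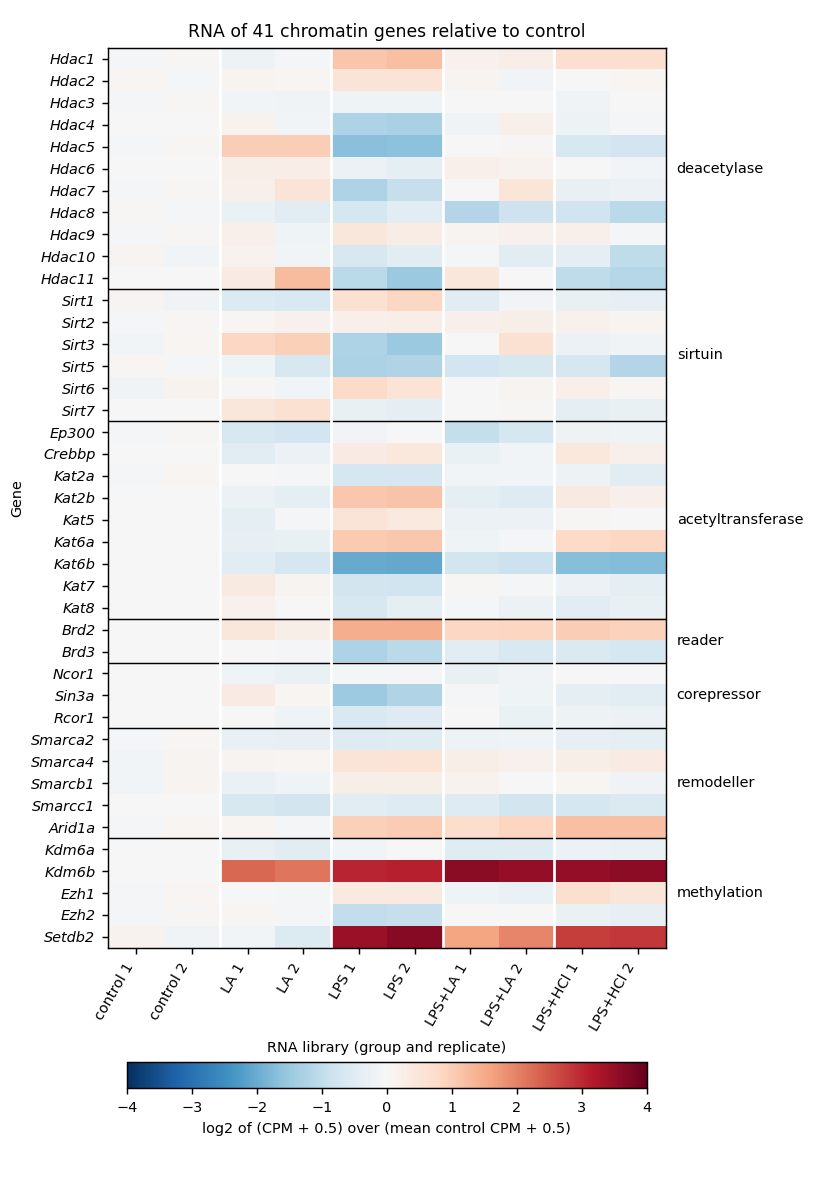
Heat map of the RNA of the 41 genes (rows, by class) in the 10 libraries (columns), as log2 of CPM plus 0.5 over the mean of control plus 0.5. Setdb2 and Kdm6b are the strongest rises in the LPS columns, and Hdac5, Sirt3 and Kat6b are among the falls.

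Lactic acid under LPS again changed members in both directions. In LPS+LA against LPS, 16 members were higher and 15 lower, beside 29.2% and 29.7% of all tested genes. The median was -0.02, and 0.03 over all genes. The members with the largest increases above 5 CPM were Sirt3 (log2 1.94 ± 0.28), Hdac5 (1.69 ± 0.09), Hdac7 (1.45 ± 0.23), Hdac4 (1.34 ± 0.14) and Kat6b (1.33 ± 0.19). Setdb2 (-1.78 ± 0.13), Kat2b (-1.57 ± 0.10), Kat6a (-1.20 ± 0.08), Sirt1 (-1.02 ± 0.15) and Hdac1 (-0.95 ± 0.08) fell most. Of the classes, deacetylases had 5 higher and 2 lower, sirtuins 2 and 2, acetyltransferases 3 and 5, readers 1 and 1, corepressors 2 and 0, remodellers 1 and 2, and methylation genes 2 and 3. Total-count scaling gave 25 higher and 8 lower, beside 6208 and 2032 of all 12213 tested genes. It kept all 16 increases and the falls of Hdac1, Sirt1, Ep300, Kat2b, Kat5, Kat6a, Brd2 and Setdb2, while Smarca4 and Arid1a turned to 0.08 and 0.21. With 1 library left out, Smarca2 (adjusted p 0.057 without LPS replicate 1) and Arid1a (up to 0.366, without LPS+LA replicate 1) lost the call.

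HCl under LPS was the acid control of the study. In LPS+HCl against LPS, 12 members were higher and 12 lower, beside 18.0% and 20.8% of all tested genes, with a median of 0.07 and 0.01 over all genes. The largest changes were those of Sirt3 (log2 1.39 ± 0.29), Hdac4 (1.16 ± 0.14), Hdac5 (0.97 ± 0.09), Sin3a (0.91 ± 0.11), Hdac7 (0.90 ± 0.24), Sirt1 (-1.07 ± 0.15), Kat2b (-0.85 ± 0.09) and Setdb2 (-0.77 ± 0.13). Deacetylases had 3 higher and 3 lower, sirtuins 1 and 2, acetyltransferases 2 and 3, readers 1 and 1, corepressors 2 and 0, remodellers 1 and 2, and methylation genes 2 and 1. Total-count scaling gave 18 higher and 5 lower, beside 4535 and 1310 of all 12213 tested genes. It kept the falls of Hdac1, Sirt1, Kat2b, Brd2 and Setdb2 and put that of Kat6a at -0.04. In each direction 8 of the 12 calls were kept with any 1 library left out; Hdac7, Hdac9, Sirt6, Kat2a, Rcor1, Smarca4, Smarcb1 and Arid1a lost theirs, with an adjusted p of up to 0.394 (Hdac9 without LPS+HCl replicate 2). These 2 acid comparisons and that of LPS with control share the LPS libraries, so a chance deviation of those libraries would enter all 3, and their values are given side by side.

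The other chromatin genes had 69 higher and 59 lower with LA under LPS, and 46 higher and 32 lower with HCl under LPS. With LA these were 40.6% and 34.7% of the list, beside 29.2% and 29.7% of all tested genes. For HCl the shares were 27.1% and 18.8%, beside 18.0% and 20.8% of all tested genes. Kmt5c (log2 2.57), Ing2 (2.44), the methyltransferase Setd7 (2.06), Cbx6 (1.86) and Kdm2b (1.45) rose most with LA, and Kdm4a (-2.16), Pcgf5 (-1.95), Phip (-1.84), the remodeller ATPase Ino80 (-1.75) and Ing3 (-1.69) fell most. With HCl the largest increases were Setd7 (1.66), Kmt5c (1.62), Tet3 (1.40), the methyltransferase Dot1l (1.34) and the remodeller Chd7 (1.08). Kdm4a (-1.39), Ing3 (-1.14), Jade2 (-1.05), Ep400 (-1.04) and Ino80 (-0.96) fell most with HCl.

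**Figure D2:**
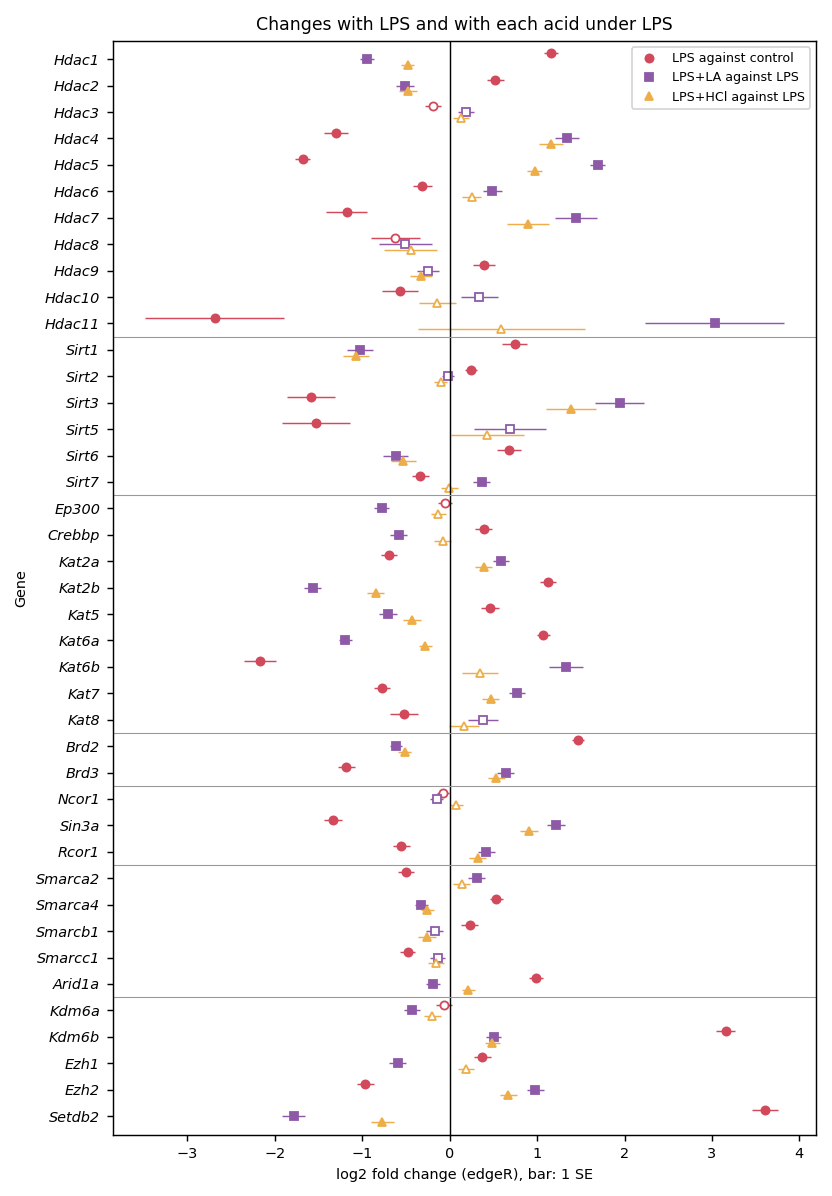
Log2 fold change with 1 SE of each of the 41 genes (rows) in LPS against control, LPS+LA against LPS and LPS+HCl against LPS, filled where the adjusted p was under 0.05. Setdb2 has the largest rise with LPS (3.61) and the largest fall with LA under LPS (-1.78).

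Lactic acid and HCl were compared directly under LPS, to see what lactate with acid did beyond another acid, although the pH of the 2 media may differ. In LPS+LA against LPS+HCl, 8 members were higher and 10 lower, beside 18.4% and 22.5% of all tested genes, with medians of 0.07 and 0.00. Kat6b (log2 0.98 ± 0.18, adjusted p = 0.000125) and Hdac5 (0.72 ± 0.08, adjusted p = 1.06e-07) were higher with LA. These kept the call with any 1 library left out. The other 6 higher members, Hdac7, Hdac11, Sirt7, Kat7, Sin3a and Ezh2, lost it at least once. Setdb2 (-1.02 ± 0.13), Kat6a (-0.92 ± 0.07), Ezh1 (-0.78 ± 0.10) and Kat2b (-0.72 ± 0.10) were lower. So were Ep300 (-0.65 ± 0.09), Crebbp (-0.50 ± 0.10), Hdac1 (-0.47 ± 0.08) and Arid1a (-0.41 ± 0.08). Ncor1 (-0.22) was also called lower, but lost the call at least once with 1 library left out and under total-count scaling (-0.06). Acetyltransferases held 5 of the 10 lower members, and the fifth, Kat5 (-0.27 ± 0.11), lost the call without any 1 of the 6 LPS, LPS+LA and LPS+HCl libraries (adjusted p 0.068 to 0.159) and under total-count scaling (-0.11). Sirt1 (0.05), Kdm6b (0.02), Brd2 (-0.10) and Hdac4 (0.18) did not pass the test, and their SEs of 0.15, 0.09, 0.07 and 0.14 set the size of difference that could be seen. Without LPS+HCl replicate 2, 3 members were higher, and 3 without that library and control replicate 1 together, the libraries with neuronal transcripts. Total-count scaling gave 19 higher and 8 lower, beside 3947 and 1893 of all 12213 tested genes.

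Lactic acid alone changed fewer members than LPS did. In LA against control, 7 members rose and 10 fell, beside 20.4% and 17.9% of all tested genes, with medians of -0.03 and 0.00. The rises were led by Kdm6b (log2 2.30 ± 0.11), Hdac5 (0.98 ± 0.08), Sirt3 (0.94 ± 0.22), Sirt7 (0.55 ± 0.09) and Brd2 (0.34 ± 0.07). All 5 were kept under total-count scaling, which gave 5 higher and 14 lower, beside 1719 and 3070 of all 12213 tested genes. Falls of Ep300 (-0.70 ± 0.08), Smarcc1 (-0.69 ± 0.09), Kdm6a (-0.37 ± 0.09) and Kat6a (-0.31 ± 0.07) held with any 1 library left out. Those of Sirt1 (-0.59 ± 0.15) and Kat6b (-0.56 ± 0.16) were past the test with all libraries, but stood at an adjusted p of 0.0623 without control replicate 1 and of 0.0717 without LA replicate 2, respectively. Without control replicate 2 the number of falls was 6. Acetyltransferases held 5 of the 10 falls, and 3 of these without control replicate 2, where Crebbp (adjusted p 0.0551) and Kat2b (0.0562) lost the call.

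The effect of LA with LPS was set against its effect without LPS by an interaction term. This comparison uses all 4 groups, and the effects on either side of it share no library. The term passed the test in 24 members, 13 with a more positive and 11 with a more negative LA effect under LPS, beside 20.4% and 23.9% of all tested genes. Its median was 0.05, and 0.00 over all genes. Total-count scaling gave 26 and 6, beside 5917 and 1294 of all 12213 tested genes. The largest terms among the called members were Kat6b (log2 1.89 ± 0.25), Hdac4 (1.32 ± 0.18), Hdac7 (1.05 ± 0.31), Kdm6b (-1.80 ± 0.14), Setdb2 (-1.46 ± 0.22) and Kat2b (-1.25 ± 0.14). The term for Hdac7 stood at an adjusted p of 0.0579 without LPS replicate 1 and 0.0637 without LPS+LA replicate 2. In both settings Hdac5, Hdac6, Sirt3, Sirt7, Kat7 and Kdm6b rose and Sirt1, Ep300, Crebbp, Kat2b, Kat6a and Kdm6a fell with LA. These 12 are 70.6% of the 17 members called with LA alone and 38.7% of the 31 called with LA under LPS. Over all tested genes the shares called the same way were 52.5% and 34.1%, and no test of the difference from the members was made. Of these 12, Hdac6 (adjusted p 0.0534 to 0.192), Kat7 (up to 0.42, without LA replicate 1), Crebbp (up to 0.105, without LA replicate 1), Kat2b (up to 0.106, without LA replicate 2) and Sirt1 (0.0623, without control replicate 1) lost the call with LA alone when 1 library was left out. Under total-count scaling Hdac6 (0.15) and Kat7 (0.12) lost it with LA alone, and Crebbp (-0.18) and Kdm6a (-0.03) with LA under LPS. Brd2, Kat6b and Smarca2 were called in opposite directions: Brd2 rose with LA alone (0.34) and fell with LA under LPS (-0.62), and Kat6b did the reverse (-0.56 and 1.33). The Smarca2 values were -0.31 and 0.31, at an adjusted p of 0.0737 without control replicate 2 and 0.057 without LPS replicate 1, respectively.

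**Figure D3:**
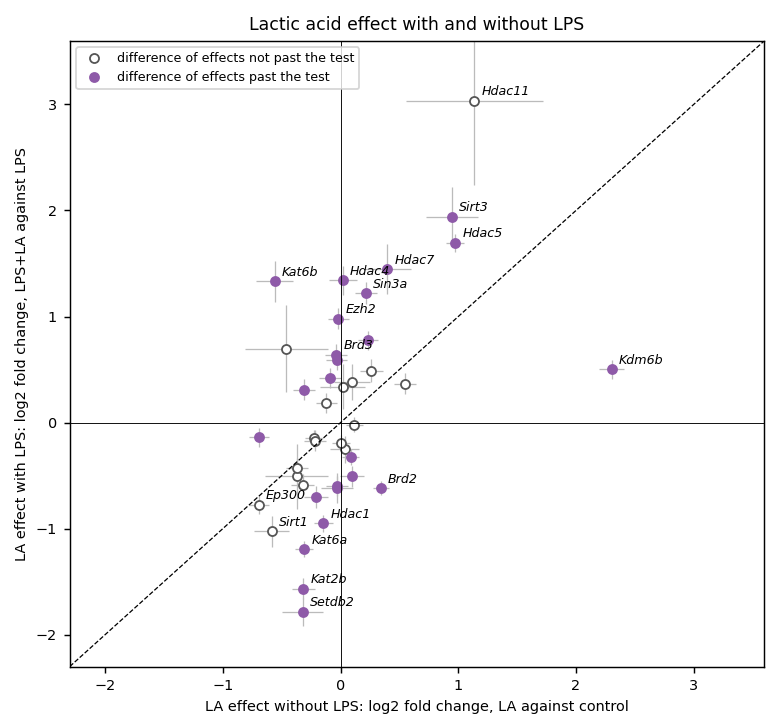
LA effect without LPS (x axis) against LA effect with LPS (y axis) for the 41 genes, as log2 fold changes, filled where the difference of the effects passed the test. Kat6b lies at -0.56 and 1.33, and Kdm6b at 2.30 and 0.50.

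Between the groups that both received LA, Setdb2, Kdm6b and Arid1a were higher and Hdac5 lower where LPS was added. In LPS+LA against LA, 6 members were higher and 6 lower, shares near those of all tested genes (15.9% and 14.6%), with medians of -0.05 and -0.01. Setdb2 (log2 2.15 ± 0.16), Kdm6b (1.36 ± 0.09), Arid1a (0.80 ± 0.08) and Brd2 (0.51 ± 0.07) were higher. These 4 were kept under total-count scaling, which gave 4 higher and 18 lower, beside 1294 and 4260 of all 12213 tested genes. Hdac5 (-0.96 ± 0.08), Sirt7 (-0.51 ± 0.09) and Brd3 (-0.50 ± 0.09) were lower. Sirt3 (-0.59 ± 0.22, adjusted p = 0.0471) lost the call without any 1 library other than LPS+LA replicate 2, at 0.0567 to 0.433, the last without LPS+LA replicate 1. The number of lower members was 3 without LA replicate 1.

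Among the deacetylases, Hdac1 rose with LPS and the class IIa enzymes Hdac4, Hdac5 and Hdac7 fell. Class I enzymes are the catalytic core of nuclear corepressor complexes, and class IIa enzymes shuttle between nucleus and cytoplasm and bind transcription factors such as Mef2. Hdac1 was at 70.4 and 76.2 CPM in control, 63.1 and 69.2 in LA, 159 and 168 in LPS, 82.2 and 87.4 in LPS+LA, and 117 and 118 in LPS+HCl. The LPS libraries were the highest, those with HCl lay between them and the LPS+LA libraries, and these 3 groups did not overlap. The change was 1.16 ± 0.08 on the log2 scale with LPS (adjusted p = 5.39e-12), -0.95 ± 0.08 with LA under LPS (3.78e-10) and -0.48 ± 0.08 with HCl under LPS (2.87e-05).

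Hdac5 was at 98.8 and 107 CPM in control, 201 and 203 in LA, 31.6 and 32.4 in LPS, 102 and 105 in LPS+LA, and 66.0 and 59.7 in LPS+HCl. LA alone gave the highest libraries and LPS the lowest, and the LPS+LA libraries lay inside the control range. LPS lowered it by 1.68 ± 0.09 (adjusted p = 1.47e-14). LA raised it by 0.98 ± 0.08 without LPS and by 1.69 ± 0.09 with LPS, and the difference of 0.72 ± 0.11 between these effects passed the test (adjusted p = 1.56e-05). HCl raised it by 0.97 ± 0.09 under LPS, less than LA did (adjusted p of the difference 1.06e-07).

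Hdac4 was at 29.7 and 29.9 CPM in control, 32.9 and 27.5 in LA, 12.3 and 12 in LPS, 27.0 and 34.5 in LPS+LA, and 25.8 and 28.4 in LPS+HCl. Only the LPS libraries stood apart, and the other 4 groups lay between 25.8 and 34.5 CPM. Its log2 change was -1.29 ± 0.14 with LPS, 1.34 ± 0.14 with LA under LPS and 1.16 ± 0.14 with HCl under LPS. Hdac7, at 7.40 and 8.02 CPM in control, 9.01 and 11.3 in LA, 2.98 and 3.83 in LPS, 7.55 and 11 in LPS+LA, and 6.18 and 6.52 in LPS+HCl, was likewise lowest in LPS. It fell by 1.18 ± 0.23 with LPS (adjusted p = 0.000116) and was 1.45 ± 0.23 higher with LA under LPS. With HCl the difference was 0.90 ± 0.24, at an adjusted p of 0.0823 without LPS replicate 1.

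The remaining deacetylases changed less or were scarce. The class I enzyme Hdac2 rose with LPS (log2 0.52, but -0.20 under total-count scaling) and was lower with LA (-0.51) and HCl (-0.47) under LPS. Both of these falls lost the call under total-count scaling, at -0.11 with LA and -0.24 with HCl. Hdac9, the other class IIa enzyme, rose by 0.40 with LPS, turned to -0.32 under total-count scaling and lost the call without control replicate 1 (adjusted p 0.0549) or LPS replicate 1 (0.104). Hdac6, a cytoplasmic tubulin deacetylase, was 0.49 ± 0.11 higher with LA under LPS. Hdac11 had counts of 27 and 27 in control, 4 and 1 in LPS, 31 and 21 in LPS+LA and 5 and 4 in LPS+HCl. Its fall with LPS (adjusted p = 0.00517) was not called without LPS replicate 2 (0.08). The call of Hdac10 in LPS against control (log2 -0.57) was lost without control replicate 1 (0.123) or LPS replicate 1 (0.145). Hdac3, the deacetylase of the Ncor1 complex, was not called in any of the 7 comparisons and lay between 44.7 and 52.2 CPM in the 10 libraries. In LPS against control it stood at -0.20 (adjusted p = 0.0422) in a fit of only those groups and at -0.91 under total-count scaling, against a median of -0.77 over all genes. Hdac8 was not called either, at 1.93 to 5.05 CPM. Its value with LPS, -0.62 ± 0.28 (adjusted p = 0.0581), was called at 0.0177 in a fit of only those groups, at 0.0443 and 0.0463 without LPS+LA replicate 1 or 2, and under total-count scaling (-1.34).

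Of the sirtuins, nuclear Sirt1 and mitochondrial Sirt3 moved in opposite directions. Sirt1, which deacetylates histones and transcription factors, was at 18.8 and 15.7 CPM in control, 11.8 and 11.2 in LA, 26.6 and 31.2 in LPS, 12.6 and 15.8 in LPS+LA, and 13.9 and 13.6 in LPS+HCl. LPS gave the highest libraries, and the acid groups under LPS overlapped each other. The log2 change was 0.74 ± 0.14 with LPS (adjusted p = 6.68e-05, but 0.02 at an adjusted p of 0.892 under total-count scaling), -1.02 ± 0.15 with LA and -1.07 ± 0.15 with HCl under LPS. Its LA effects with and without LPS did not differ past the test (-0.44 ± 0.21, adjusted p = 0.0898).

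Sirt3, the main deacetylase of mitochondrial proteins, was at 4.85 and 5.57 CPM in control, 9.58 and 10.5 in LA, 1.94 and 1.52 in LPS, 5.19 and 8.16 in LPS+LA, and 4.39 and 4.69 in LPS+HCl. The LA libraries were the highest and the LPS libraries the lowest, with no overlap between LPS and any other group. It fell by 1.58 ± 0.28 with LPS (adjusted p = 2.52e-05), rose by 0.94 ± 0.22 with LA alone (0.00158) and was higher by 1.94 ± 0.28 with LA and 1.39 ± 0.29 with HCl under LPS. The interaction, 1.00 ± 0.36 (adjusted p = 0.0265), lost the call without any 1 of control replicate 2 (0.0924), LA replicate 1 (0.058), LPS replicate 2 (0.129) and LPS+LA replicate 2 (0.168). Sirt7, a nucleolar sirtuin, was higher with LA in both settings (0.55 ± 0.09 without and 0.37 ± 0.10 with LPS) and not with HCl under LPS (0.00 ± 0.10), and LA and HCl differed by 0.37 ± 0.10 (adjusted p = 0.00374, and 0.0525 without LPS+HCl replicate 1). Sirt6 rose by 0.68 ± 0.14 with LPS, turning to -0.04 under total-count scaling, and Sirt5 fell by 1.53 ± 0.39 from 3.72 and 3.29 CPM to 1.17 and 1.26.

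Kat2b and Kat2a, and likewise Kat6a and Kat6b, are acetyltransferase paralogs that moved in opposite directions with LPS. Kat2b (PCAF), a coactivator enzyme, was at 39.7 and 40.3 CPM in control, 33.9 and 30.4 in LA, 85.1 and 89.5 in LPS, 30.8 and 28.1 in LPS+LA, and 51.3 and 45.7 in LPS+HCl. The LPS libraries were the highest without overlap, and the LPS+LA libraries were below every control library. The log2 change was 1.12 ± 0.09 with LPS (adjusted p = 2.1e-10), -1.57 ± 0.10 with LA and -0.85 ± 0.09 with HCl under LPS, and LA was lower than HCl by 0.72 ± 0.10 (adjusted p = 2.7e-06). Its paralog Kat2a (GCN5) went the other way, by -0.70 ± 0.09 with LPS and 0.59 ± 0.09 with LA under LPS.

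Kat6a (MOZ) was at 90.9 and 91.9 CPM in control, 72.5 and 74.9 in LA, 189 and 195 in LPS, 80.5 and 87.4 in LPS+LA, and 156 and 161 in LPS+HCl. Kat6b (MORF), its close paralog, was at 17.5 and 17.4 CPM in control, 13 and 10.8 in LA, 3.95 and 3.83 in LPS, 10.3 and 9.32 in LPS+LA, and 5.01 and 4.92 in LPS+HCl. In Kat6a the LPS+HCl libraries lay between control and LPS and the LPS+LA libraries below control, and in Kat6b the order was control, LPS+LA, LPS+HCl and LPS from high to low, without overlap of these 4 groups in either gene. With LPS, Kat6a rose by 1.07 ± 0.07 (adjusted p = 6.04e-12) and Kat6b fell by 2.16 ± 0.18 (2.8e-10). With LA under LPS the changes were -1.20 ± 0.08 and 1.33 ± 0.19, and with HCl -0.28 ± 0.07 (-0.04 under total-count scaling) and 0.35 ± 0.21, which did not pass the test (adjusted p = 0.193). LA and HCl differed in both genes, by -0.92 ± 0.07 in Kat6a (adjusted p = 6.58e-10) and 0.98 ± 0.18 in Kat6b (0.000125).

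Ep300 (p300) and Crebbp (CBP), related coactivators of many signal-dependent enhancers, were lower where LA was added. Ep300 was at 165 and 180 CPM in control, 111 and 102 in LA, 162 and 172 in LPS, 88.3 and 106 in LPS+LA, and 150 and 155 in LPS+HCl. All 4 libraries with LA lay below the 6 without it. Its change was -0.70 ± 0.08 with LA alone (adjusted p = 8.38e-07) and -0.78 ± 0.09 with LA under LPS (4.5e-08), while those with LPS (-0.05 ± 0.08) and with HCl under LPS (-0.13 ± 0.08) did not pass the test, and LA was lower than HCl by 0.65 ± 0.09 (1.64e-06). Crebbp was lower with LA under LPS (-0.58 ± 0.10) and than with HCl (-0.50 ± 0.10). With LA alone it fell by 0.32 ± 0.10, at an adjusted p of 0.105 without LA replicate 1 and 0.0551 without control replicate 2. Kat7 (HBO1) fell by 0.77 ± 0.09 with LPS and was 0.78 ± 0.09 higher with LA under LPS, and Kat5 (TIP60) was 0.70 ± 0.10 lower with LA under LPS. Kat8 (MOF) fell with LPS (-0.52 ± 0.16, adjusted p = 0.0075, and 0.115 without LPS replicate 1).

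**Figure D4:**
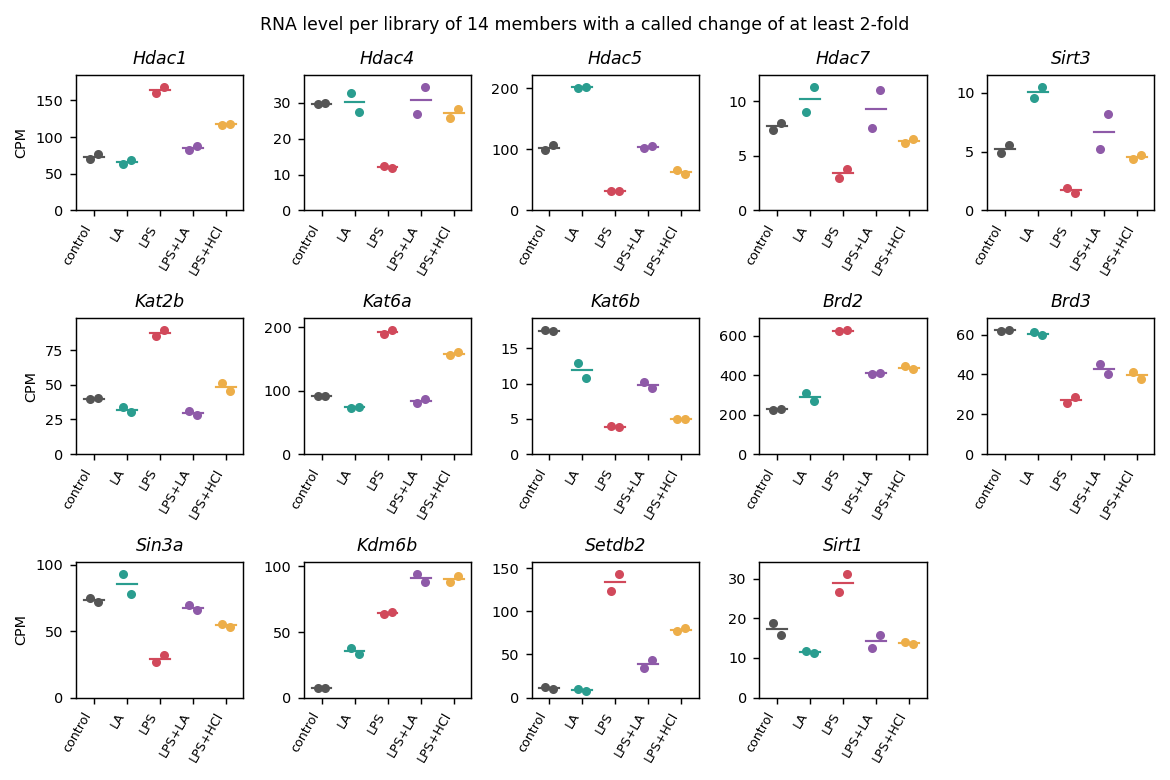
CPM in each library (points, with the group mean as a line) of the 14 genes with a called change of at least 2-fold and at least 5 CPM in a group, by group, each panel with its own linear axis from 0. The LPS points are the lowest of Hdac4, Hdac5, Hdac7, Sirt3, Kat6b, Brd3 and Sin3a, and the highest of Hdac1, Sirt1, Kat2b, Kat6a, Brd2 and Setdb2.

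The readers Brd2 and Brd3, of the BET family, also moved apart. Brd2 was at 226 and 229 CPM in control, 308 and 268 in LA, 628 and 628 in LPS, 405 and 414 in LPS+LA, and 446 and 433 in LPS+HCl. Brd3 was at 62.0 and 62.1 CPM in control, 61.1 and 59.8 in LA, 25.9 and 28.9 in LPS, 45.1 and 40.2 in LPS+LA, and 41.4 and 37.9 in LPS+HCl. In both genes the acid groups under LPS lay between control and LPS, without overlap with either. LPS raised Brd2 by 1.47 ± 0.07 (adjusted p = 5.59e-15) and lowered Brd3 by 1.18 ± 0.10 (1.86e-10). LA under LPS changed them by -0.62 ± 0.07 and 0.64 ± 0.10, and HCl by -0.52 ± 0.07 and 0.54 ± 0.10. LA and HCl did not differ past the test in either gene (-0.10 ± 0.07 and 0.10 ± 0.10). The bounds of Brd2 overlap those of H2-DMa by 3122 bp, and the strand setting of the counting is unknown here, so reads of the shared stretch cannot be told apart.

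Among the corepressors, Sin3a had the largest change with LPS and with each acid under LPS. Sin3a was at 75.1 and 72.2 CPM in control, 93.2 and 77.9 in LA, 26.5 and 31.8 in LPS, 69.8 and 66.0 in LPS+LA, and 55.9 and 53.3 in LPS+HCl. LPS was lowest without overlap, and LPS+LA lay just below control. Its log2 change was -1.34 ± 0.10 with LPS (adjusted p = 5.21e-11), 1.22 ± 0.10 with LA and 0.91 ± 0.11 with HCl under LPS. Rcor1 (CoREST) fell with LPS (-0.55 ± 0.10) and was higher with LA under LPS (0.42 ± 0.10). Ncor1, at 166 to 209 CPM over all libraries, did not pass the test with LPS (-0.08 ± 0.07), nor with LA (-0.15 ± 0.07) or HCl (0.07 ± 0.07) under LPS. Its value with LA under LPS was called with DESeq2 size factors (adjusted p = 0.0395), the DESeq2 test (0.0333) and without LPS+LA replicate 2 (0.0306), and turned to 0.26 under total-count scaling, which also gave -0.80 with LPS and 0.31 with HCl. It fell by 0.23 ± 0.07 with LA alone, at an adjusted p of 0.111 without LA replicate 2 and 0.0836 without control replicate 2. Between the acids under LPS, Ncor1 was called lower with LA than with HCl (-0.22), with the limits given above.

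In the SWI/SNF group the large subunit Arid1a rose with LPS and stayed high with both acids. It was at 162 and 183 CPM in control, 181 and 164 in LA, 333 and 352 in LPS, 282 and 316 in LPS+LA, and 395 and 399 in LPS+HCl. All 6 libraries with LPS lay above the 4 without, and HCl gave the highest. The change was 0.99 ± 0.08 with LPS (adjusted p = 6.9e-11), and LPS+LA was lower than LPS+HCl by 0.41 ± 0.08 (0.000153). Against LPS the values were -0.19 ± 0.08 with LA, turning to 0.21 under total-count scaling, and 0.21 ± 0.08 with HCl, and both calls depended on single libraries. That with LA had an adjusted p of 0.0686 without LPS replicate 1, 0.251 without LPS replicate 2, 0.366 without LPS+LA replicate 1, and 0.0524 and 0.0502 without LPS+HCl replicates 1 and 2. That with HCl had 0.245 and 0.0769 without LPS replicates 1 and 2, and 0.11 and 0.14 without LPS+HCl replicates 1 and 2. The alternative ATPases of the complex went apart with LPS, Smarca4 by 0.53 ± 0.07 (-0.18 under total-count scaling) and Smarca2 by -0.50 ± 0.09. Smarcc1, at 96.6 and 96.8 CPM in control, lay between 57.9 and 70.6 CPM in the 8 treated libraries. It fell by 0.48 ± 0.09 with LPS and 0.69 ± 0.09 with LA, and did not pass the test with LA (-0.14 ± 0.09) or HCl (-0.16 ± 0.09) under LPS. The core subunit Smarcb1 rose with LPS by 0.23 ± 0.10, at an adjusted p of 0.336 without control replicate 1, 0.136 without LPS replicate 1 and 0.123 without LPS replicate 2, and turned to -0.49 under total-count scaling.

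The methylation genes held the largest rises. Kdm6b (JMJD3), an inducible demethylase of the Polycomb mark, was at 7.32 and 7.14 CPM in control, 37.8 and 33.5 in LA, 63.5 and 65.5 in LPS, 94.3 and 88.4 in LPS+LA, and 88.2 and 92.6 in LPS+HCl. Every treated library was above control, and both acid groups under LPS were above LPS and overlapped each other. The change was 3.16 ± 0.11 with LPS (adjusted p = 4.56e-18), 2.30 ± 0.11 with LA alone (6.67e-14), 0.50 ± 0.09 with LA under LPS (2.78e-05) and 0.49 ± 0.09 with HCl under LPS (8.61e-05). The LA effect was smaller under LPS by 1.80 ± 0.14 (adjusted p = 1.72e-10). Its constitutive relative Kdm6a (UTX) did not pass the test with LPS (-0.06 ± 0.09) and was lower with LA, by 0.37 ± 0.09 without and 0.43 ± 0.10 with LPS. Under total-count scaling the latter was -0.03 (adjusted p = 0.798).

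Setdb2, a methyltransferase of histone H3 known as interferon-inducible in macrophages, was at 12.1 and 9.78 CPM in control, 10.2 and 7.28 in LA, 124 and 143 in LPS, 33.8 and 43.7 in LPS+LA, and 76.7 and 80.1 in LPS+HCl. The groups with LPS did not overlap, with LPS highest and LPS+LA lowest. It rose 12.2-fold with LPS (log2 3.61 ± 0.15, adjusted p = 5.03e-13) and was lower with LA by 1.78 ± 0.13 (3.66e-09) and with HCl by 0.77 ± 0.13 (0.000122), and LA was below HCl by 1.02 ± 0.13 (1.01e-05). All of Setdb2 (chr14:59402009-59440880) lies within the bounds of Gm45935, a read-through gene annotated from Setdb2 to Phf11c. How the counting assigned reads of the shared stretch is not known, so the values of Setdb2 alone are uncertain. Gm45935 was at 3.74 and 5.86 CPM in control, 3.40 and 4.73 in LA, 78.9 and 71.3 in LPS, 7.59 and 4.77 in LPS+LA, and 40.1 and 38.8 in LPS+HCl. With the reads of both genes summed, the log2 changes were 3.73 ± 0.10 with LPS, -2.21 ± 0.09 with LA under LPS, -0.82 ± 0.08 with HCl under LPS and -1.39 ± 0.09 between LA and HCl. The sum also fell with LA alone (-0.30 ± 0.11, adjusted p = 0.0327), where Setdb2 as deposited did not pass the test (-0.32 ± 0.17, adjusted p = 0.157).

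Ezh2 and Ezh1, the alternative methyltransferases of Polycomb repressive complex PRC2, changed in opposite directions with LPS and with LA under LPS. Ezh2 was at 49.7 and 53.5 CPM in control, 53.1 and 48.7 in LA, 25.7 and 27.2 in LPS, 51.8 and 52.5 in LPS+LA, and 43.3 and 41.1 in LPS+HCl. LPS was lowest, and LPS+LA lay within the range of control. Its change was -0.96 ± 0.10 with LPS (adjusted p = 5.64e-09), 0.98 ± 0.10 with LA and 0.67 ± 0.10 with HCl under LPS. Ezh1 rose by 0.37 ± 0.09 with LPS, but stood at -0.35 under total-count scaling, where Ezh2 stood at -1.68. With LA under LPS Ezh1 was lower by 0.60 ± 0.10, a call lost under total-count scaling (-0.19). It did not pass the test with HCl (0.19 ± 0.09, adjusted p = 0.126). LA and HCl differed by 0.78 ± 0.10 in Ezh1 (adjusted p = 4.58e-07), with LA lower.

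ATAC peaks gained or lost near the members were counted, calling a site gained where all 3 samples of a group and none of the other had a peak. The peak lists hold no read counts, so no test was made. Of the 41 members, 19 had a site gained with LPS within the gene or 10 kb, beside 35.3% of 12165 tested genes with a position, and 8 had a lost site, beside 15.3%. Members are longer than the tested genes as a whole, with a median of 38.4 kb against 23.2 kb. A longer gene can take in more sites, and whether length bears on these shares was not tested. LA alone went with a gained site at 3 members (10.2% of all genes) and a lost one at 7 (14.4%), and LPS+LA against LPS with a gained site at 6 (14.3%) and a lost one at 12 (13.7%). The LA and LPS+LA samples ran on sequencing lane 6 and the others on lane 5, per the file headers, so lane and LA cannot be told apart in these 2 comparisons. The number with a site gained by LA was 8 without LA replicate 1, that lost by LA 13 without control replicate 2, and that gained by LPS+LA 11 without LPS+LA replicate 1. With only the 50000 highest-scoring peaks of each sample, 11 members had a site gained with LPS and 5 a site lost in LPS+LA against LPS. Shares over all genes are not given here for these changed settings, so such counts cannot be set against them.

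The gained sites were also counted by gene. Of 42 distinct sites gained with LPS at members, 34 lay inside gene bounds and 15 belonged to Hdac9. Hdac9 is the longest member at 869.5 kb (chr12:34047580-34917095), ahead of Hdac4 at 266.9 kb and a member median of 38.4 kb. Whether its length bears on its number of sites was not tested. In LPS+LA, 22 of the 42 had a peak in all 3 samples and 9 in none. Over all 10579 sites gained with LPS these shares were 54.8% and 19.7%. At Hdac9, 11 of 15 had a peak in all LPS+LA samples and 2 in none, and 5 had a peak in all LA samples. Of the 42 member sites, 6 had a peak in all LA samples, and the share over all gained sites is not given here. The RNA of Hdac9 lay between 25.8 and 40.8 CPM in the 10 libraries.

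At Kat2b, 4 sites inside the gene were gained with LPS. The one at chr17:53581909-53582178 had a peak in 3 LPS samples and in no control, LA or LPS+LA sample, and that at chr17:53618343-53618748 had one in all LPS and all LPS+LA samples. Hdac4 had 3 sites gained inside the gene, of which chr1:92098429-92098690 had a peak in no LPS+LA sample and the other two in all 3. The site gained with LPS near Setdb2, chr14:59396971-59397493, lay 4516 bp outside the gene and inside Gm45935, and had a peak in 0 control, 3 LPS, 2 LA and 3 LPS+LA samples. Kat6b had 2 sites lost with LPS, 1984 and 7134 bp outside the gene, with a peak in no LPS+LA sample. A further Kat6b site, chr14:21678558-21679370, 6080 bp outside the gene, had a peak in 2 control, 0 LPS, 3 LA and 3 LPS+LA samples. Another, inside the gene at chr14:21582334-21582670, had a peak in 1 control, 3 LPS, 0 LA and 0 LPS+LA samples. Kat6a had 3 sites lost with LA, all inside the gene, and 1 of them, chr8:22881014-22881400, had a peak in all LPS and in no LPS+LA sample.

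**Figure D5:**
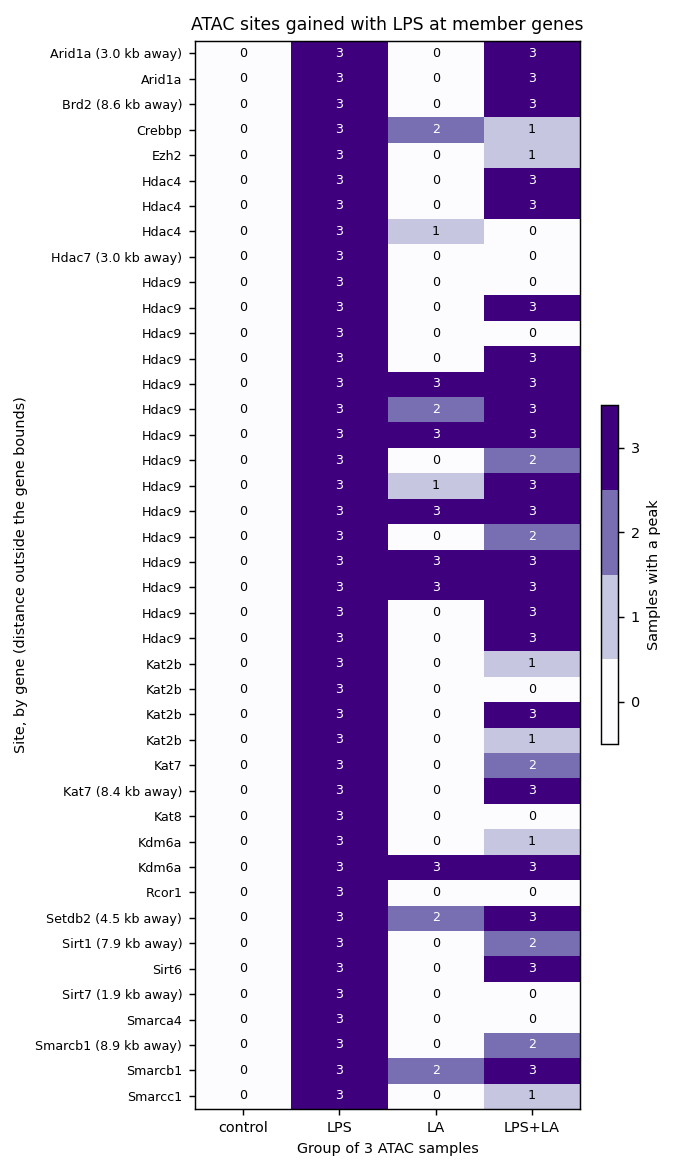
Number of samples with a peak (colour, 0 to 3) in each of the 4 ATAC groups (columns) for the sites gained with LPS at member genes (rows, with the distance outside the gene bounds). All rows have 0 in control and 3 in LPS by construction; the 15 rows of Hdac9 and the 4 of Kat2b are the largest blocks.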

How the data were processed

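For RNA the authors deposited, per the file headers, expected counts, TPM and FPKM for 16059 genes in 10 libraries. The tools named in the submitters' processing notes are HISAT and Bowtie2, with the build GRCm38.p6. The counter and its strand handling were not given in the sources used here. Such counts divide reads between overlapping genes, so 6.07% were not whole, and all were rounded. Among the members, 23 of 41 are overlapped by another RefSeq gene. Counts were tested with edgeR 4.0.16 (R 4.3.3; quasi-likelihood with robust dispersion, TMM, all 10 libraries sharing 1 spread) on 12213 genes kept by filterByExpr (minimum count 10, minimum total 15), checked on simulated data, with Benjamini-Hochberg adjustment over all genes at 0.05. CPM are counts over TMM-scaled library size, and the deposited TPM were used only for levels between genes. Errors after ± are standard errors unless marked SD.

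ATAC peaks were made with BWA 0.5.9, Picard and MACS2 2.0.10 on mm10, per the submitters' processing notes. The score in the deposited peak lists was used only to rank peaks. Peaks, 76680 to 100667 per sample, were merged into 127890 sites at an overlap of 1 bp. Promoter sequences were those of RefSeq for 36 members and are not printed for Hdac1, Hdac3, Hdac10, Kat6a and Kdm6b.

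A member was described library by library where it was called in a comparison with a log2 change of at least 1, a group mean of 5 CPM or more and separate groups, and others of each class were described by counts, with up to 4 of the largest called changes per class and comparison; Ep300, Arid1a, Smarcc1, Ezh2, Hdac11 and Gm45935 were described further after their values were seen. Of the other chromatin genes, up to 5 per direction with the largest change and at least 10 CPM were named. The members and lists were chosen with earlier results of these data known. Alternatives were total-count scaling, DESeq2 1.42.0 size factors and test, no filter, a replicate block, only the groups compared, and leaving out libraries. The summed reads of Setdb2 and Gm45935 were added after seeing the data.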

Additional observations from a re-analysis of the deposited data

Results flagged for a closer look

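The effect of LA differed with and without LPS (edgeR interaction term, adjusted p under 0.05) in 24 members (58.5%), beside 44.3% of all tested genes. The term is given here as the log2 effect with LPS minus that without. Among deacetylases the term was -0.80 for Hdac1, -0.60 for Hdac2, 1.32 for Hdac4, 0.72 for Hdac5 and 1.05 for Hdac7, and among sirtuins 1.00 for Sirt3 and -0.59 for Sirt6. The acetyltransferases had 0.62 for Kat2a, -1.25 for Kat2b, -0.50 for Kat5, -0.88 for Kat6a, 1.89 for Kat6b and 0.54 for Kat7. Readers and corepressors had -0.96 for Brd2, 0.68 for Brd3, 1.00 for Sin3a and 0.51 for Rcor1. The remodellers had 0.62 for Smarca2, -0.41 for Smarca4 and 0.56 for Smarcc1, and the methylation genes -1.80 for Kdm6b, -0.57 for Ezh1, 1.00 for Ezh2 and -1.46 for Setdb2. Under total-count scaling all 13 positive terms kept their call, but only 6 of the 11 negative ones did. Kat5 and Smarca4 turned to 0.01 and 0.10, and Hdac2 (-0.09), Sirt6 (-0.08) and Ezh1 (-0.06) lost the call. With 1 library left out in turn, 4 of the 24 lost the call at least once. The highest adjusted p was 0.0637 for Hdac7 and 0.168 for Sirt3, both without LPS+LA replicate 2, and 0.118 for Sirt6 and 0.056 for Kat5, both without LPS replicate 1.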

How the results depend on the processing

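Of 287 values (41 members in 7 comparisons), 162 were called, and 100 of these kept call and direction in all 17 settings, while 42 lost the call when 1 library was left out. Total-count scaling moved the counts most: LPS against control to 7 higher and 31 lower, LPS+LA against LPS to 25 and 8, LPS+HCl against LPS to 5 lower, LPS+LA against LPS+HCl to 19 higher, LPS+LA against LA to 18 lower and the interaction to 26 and 6. It reversed, in LPS against control, Hdac2 (-0.20), Hdac9 (-0.32), Sirt2 (-0.48), Sirt6 (-0.041), Crebbp (-0.33), Kat5 (-0.26), Smarca4 (-0.18), Smarcb1 (-0.49) and Ezh1 (-0.35), in LPS+LA against LPS, Sirt2 (0.38), Ncor1 (0.26), Smarca4 (0.08), Smarcb1 (0.23), Smarcc1 (0.26) and Arid1a (0.21), in LPS+LA against LA, Ncor1 (-0.21), and in the interaction, Sirt2 (0.37), Sirt7 (0.33), Ep300 (0.43), Kat5 (0.012), Smarca4 (0.10), Arid1a (0.32) and Kdm6a (0.45). The move goes with the shift of the median of all genes given above. Counts over all tested genes, also given above, moved the same way in each of these comparisons. Without both libraries with neuronal transcripts, 3 members were higher in LPS+LA against LPS+HCl. Leaving out 1 library gave 6 to 10 members lower in LA against control, 3 to 8 higher in LPS+LA against LPS+HCl and 3 to 6 lower in LPS+LA against LA, fewer samples being used in each. The replicate numbers do not pair the libraries (10 pairs of groups, correlations of deviations -0.364 to 0.0538). The replicate block changed 1 value, Hdac10 in LPS+LA against LPS+HCl, called at 0.49 (adjusted p = 0.0462).

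For ATAC, members with a site gained with LPS numbered 31 within 50 kb and 11 with the 50000 top peaks, and those with a lost site 3 within gene bounds. For LA, gained sites were at 8 members within 50 kb, 6 with top peaks and 5 with 200 bp around centres, and lost sites at 11 and 4 (50 kb and top peaks). Sites lost in LPS+LA against LPS were at 5 with top peaks. Leaving out 1 sample gave 3 to 8 members with a site gained and 7 to 13 with one lost with LA, and 7 to 11 gained in LPS+LA against LPS. These ATAC counts stand without the shares over all tested genes, which also depend on the setting. No result about the members is read from them. Low depth limited Hdac11, Hdac8 and Sirt5, whose levels were at or below about 5 CPM, and the peak lists hold no read depth.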

Other observations

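Other chromatin genes, from the same list of 170, are given here for comparisons where the text above names members alone. With LA alone 33 rose (19.4%) and 44 fell (25.9%), beside 20.4% and 17.9% of all tested genes. The rises were led by the remodeller Chd7 (log2 1.99), the demethylase Kdm7a (1.68), the methyltransferase Dot1l (1.12), Kdm5b (0.95) and Jarid2 (0.89). The falls were led by Kmt5b (-1.47), Ing5 (-1.09), Atad2 (-0.84), Smarcad1 (-0.80) and Hells (-0.77). In LPS+LA against LPS+HCl 33 were higher (19.4%) and 49 lower (28.8%), beside 18.4% and 22.5% of all tested genes. Uhrf1 (1.07), Kmt5c (0.95), Jmjd1c (0.94), Meaf6 (0.86) and Trim24 (0.83) were higher with LA, and Arid4a (-1.34), Pcgf5 (-1.28), Phip (-0.91), Nsd3 (-0.90) and Atad2b (-0.81) lower.

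In LPS+LA against LA 30 were higher (17.6%) and 31 lower (18.2%), beside 15.9% and 14.6% of all tested genes. Sap30 (1.35), Tet2 (1.31), Jarid2 (1.29), Rnf2 (1.03) and Dot1l (0.80) stood at the upper end. Jade1 (-1.15), Kdm5b (-0.89), Brd1 (-0.86), Kat14 (-0.79) and Cbx6 (-0.68) stood at the lower end. The LA effect with LPS exceeded that without in 54 genes (31.8%) and fell short of it in 43 (25.3%). Over all tested genes these shares were 20.4% and 23.9%. Jade1 (2.23), Atad2 (2.19), Kmt5c (2.02), Uhrf1 (1.86) and Cbx6 (1.75) had the most positive terms, and Tet2 (-2.07), Kdm4a (-1.88), Pcgf5 (-1.74), Phip (-1.68) and Nsd3 (-1.68) the most negative.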
